A study of Arabidopsis thaliana with 6 samples.

Results

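The 35 genes described here cover jasmonate synthesis after the lipoxygenase step, the jasmonate receptor, the JAZ repressors and the transcription factors they bind, and 3 genes that jasmonate is known to induce. They were chosen by locus code, and all 35 had a row among the 27827 probe sets of the deposited table. Transcript levels were measured on 6 arrays of whole Arabidopsis thaliana seedlings, 3 of wild-type Col-0 seedlings and 3 of naa20-1 mutant seedlings, 1 array per sample. The mutant is depleted, per the design text of the series, of the catalytic subunit of NatB, a complex that acetylates the N-terminus of proteins. All seedlings were 17 days old, grew on MS medium of 1x strength under short days with 8.5 h of light at 100 µE, and received no treatment. The sources used here do not give how the naa20-1 allele changes its gene. The labels name no separate cultures or plants behind the samples of a genotype. The p-values therefore measure the spread among these samples alone, and that spread may be technical.

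Jasmonate is made from linolenic acid of plastid membranes. Lipoxygenase, allene oxide synthase and allene oxide cyclase make OPDA in the plastid, and the peroxisome reduces OPDA and shortens its side chain to jasmonic acid. Conjugation to isoleucine gives the active hormone, which joins the F-box protein COI1 to JAZ repressors and leads to their destruction by the proteasome. MYC transcription factors held back by JAZ and NINJA are then released, and they raise the transcripts of defence and wound genes and of most JAZ genes, which closes a feedback loop. In leaves the pathway is known for defence against insects and for slowing growth after wounding, and in flowers for stamen development.

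Values are log2 expression after RMA, and differences are taken on the log2 scale as naa20-1 minus Col-0. Genes with a limma p under 0.05, after Benjamini-Hochberg adjustment over 27241 tested genes, were called. Arrays give no counts, and their number limits the precision. The table holds no detection calls. Values under its 25th percentile, 3.72, may be background, and are named dim below. A brighter probe set is no sign of a more abundant transcript, so levels are compared between arrays and not between genes.

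NAA20 (AT1G03150), the gene that the mutant is named for, was at 8.75 ± 0.04 (SD, n = 3) in Col-0 and 7.68 ± 0.38 in naa20-1, which is a difference of -1.07 (SE 0.18, limma adjusted p = 0.0407). Leaving out 1 array gave NAA20 differences from -1.28 to -0.91 with adjusted p-values from 0.0181 to 0.135. Every array had a median of 6.12, and correlations across probe sets were 0.993 to 0.995 within groups and 0.990 to 0.993 between them. Markers of 4 tissues were followed, since a whole seedling mixes organs, and in such bulk RNA fewer cells of a type and less RNA per cell cannot be told apart. Summed on the linear scale, 18 root markers gave 5769.8 to 6220.1 in Col-0 and 4417 to 4929.8 in naa20-1, with 14 of 18 differences below 0, 0 called and 8 under 0.05 by the unadjusted p. The sum of 10 shoot markers was 72911 to 74596 in Col-0 and 71885 to 72359 in naa20-1, with 7 of 10 differences below 0 and 0 called (1 under 0.05 by limma's unadjusted p). For 8 of the 18 root and 5 of the 10 shoot markers all naa20-1 values lay below the Col-0 values, beside 10.5% of all tested genes. Differences below 0 were found for 48.8% of all tested genes. The sum of 10 seed and embryo markers was 190.2 to 205 in Col-0 and 484 to 818 in naa20-1, and 3 of the 10 were dim on all 6 arrays. Of these 10, 4 were called higher, beside 0.382% of all tested genes. For 7 of the 10 all naa20-1 values lay above the Col-0 values, beside 10.6% of all tested genes. Such sums weigh the brightest probe sets most. RMA equalises array distributions, which holds values at the top of the scale alike. RBCS1A, the brightest shoot marker, was at 14.18 on all 6 arrays. LHCB3 and PSBO1 shared the values 13.75, 13.85 and 13.87 in Col-0, in a different order. The shoot sum therefore cannot show whether shoot content differed. Of 7 stamen and petal markers, 6 were dim on all 6 arrays and 0 were called (0 under 0.05 by limma's unadjusted p), with sums of 73.0 to 75.4 in Col-0 and 69.0 to 73.5 in naa20-1.

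Of the 35 jasmonate genes, VSP1 and OPCL1 were called lower in naa20-1, 0 were called higher and 33 did not pass the test. Over all tested genes 1.15% were called, 0.767% lower and 0.382% higher. With limma's unadjusted p under 0.05, 10 of the 35 were lower and 4 higher, beside 7.19% and 7.02% of all genes. In 17 of the 35 (48.6%) the 3 values of one group lay wholly on one side of the other group's, 11 lower and 6 higher in naa20-1, and this held for 21.0% of all tested genes. The median difference was -0.09 for the 35 genes and 0.01 for all tested genes, and 22 of the 35 differences were below 0, beside 48.8% of all tested genes. The differences ran from -1.11 for VSP1 to 0.42 for JAZ4. Most of the genes whose groups did not overlap downwards were JAZ genes, 7 of the 11.

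**Figure D1:**
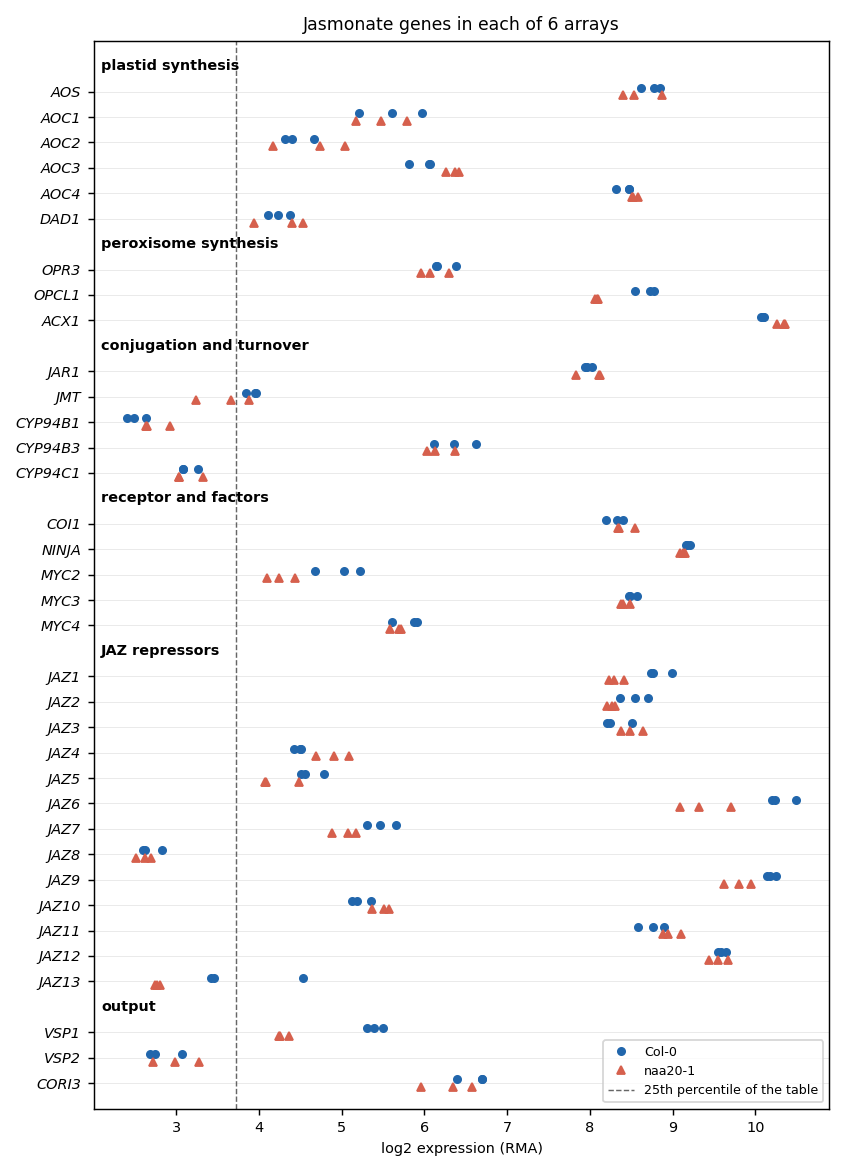
Each row is 1 of the 35 genes, grouped by step, with log2 expression after RMA on the horizontal axis; circles are the 3 Col-0 arrays, triangles the 3 naa20-1 arrays, and the dashed line is the 25th percentile of the table, 3.72. The triangles of VSP1 lie wholly to the left of its circles, and CYP94B1, CYP94C1, JAZ8 and VSP2 lie left of the dashed line on all 6 arrays.

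The genes of the plastid steps were not called. AOS (AT5G42650), allene oxide synthase, opens the branch to jasmonate and is encoded by a single gene. It stood at 8.77, 8.62 and 8.85 in Col-0 and at 8.40, 8.53 and 8.88 in naa20-1, with a difference of -0.14 (95% interval -0.47 to 0.18, limma adjusted p = 0.701). The groups overlapped, with naa20-1 replicate 3 above every Col-0 array.

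The allene oxide cyclases set the stereochemistry of OPDA and are encoded by AOC1 to AOC4. On the reference gene order AOC1, AOC2 and AOC3 are direct neighbours on chromosome 3. Their sequences are alike, and a probe set for one may also pick up another. AOC3 (AT3G25780) was at 6.06, 5.81 and 6.07 in Col-0 and at 6.38, 6.27 and 6.42 in naa20-1. All 3 naa20-1 values lay above the Col-0 values, and the difference of 0.37 (SE 0.10) did not pass the test (limma adjusted p = 0.160). AOC4 (AT1G13280) was at 8.32, 8.48 and 8.47 in Col-0 and at 8.58, 8.52 and 8.52 in naa20-1. Its groups were apart by 0.0371 only, with a difference of 0.12 (SE 0.09, limma adjusted p = 0.605).

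AOC1 and AOC2, the neighbours of AOC3, overlapped between the groups. AOC1 (AT3G25760) spread over 5.21 to 5.97 in Col-0 and 5.18 to 5.79 in naa20-1, and AOC2 (AT3G25770) over 4.31 to 4.67 and 4.17 to 5.04. Their differences were -0.11 and 0.19, each with an SE of 0.22, and each turned sign when 1 array was left out. DAD1 (AT2G44810), a lipase first known from stamens that frees linolenic acid, ranged over 4.11 to 4.37 in Col-0 and 3.94 to 4.53 in naa20-1, with a difference of 0.05 (95% interval -0.33 to 0.43).

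Of the 3 peroxisomal genes, OPCL1 fell in naa20-1. OPCL1 (AT1G20510) is the ligase that couples the reduced OPDA product to coenzyme A, which readies it for β-oxidation. It was at 8.73, 8.54 and 8.78 in Col-0 and at 8.09, 8.06 and 8.10 in naa20-1. The 3 mutant values lay within 0.04 of each other and 0.447 below the lowest Col-0 value. The fall was 1.52-fold (difference -0.60, SE 0.09, limma adjusted p = 0.0328). It was close to the threshold. Leaving out any 1 of the 6 arrays gave differences from -0.67 to -0.55 with adjusted p-values from 0.0612 to 0.128. With a block for replicate number in the fit the adjusted p was 0.0844. Of the 18 root markers, 14 had differences below 0 and 0 were called (8 lower under 0.05 by limma's unadjusted p). Of the 10 shoot markers, 7 had differences below 0 and 0 were called (1 lower under 0.05 by limma's unadjusted p). The part of either tissue in the fall was not tested.

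ACX1 (AT4G16760), the acyl-CoA oxidase that starts each round of β-oxidation, stood at 10.10, 10.07 and 10.11 in Col-0 and at 10.35, 10.26 and 10.36 in naa20-1. The mutant values were all above the Col-0 values, with a difference of 0.23 (SE 0.08) that did not pass the test (limma adjusted p = 0.253). OPR3 (AT2G06050), the reductase that acts on OPDA, was at 6.15, 6.14 and 6.38 in Col-0 and at 5.96, 6.07 and 6.30 in naa20-1. Its groups overlapped (difference -0.11, 95% interval -0.39 to 0.17, limma adjusted p = 0.735).

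The 5 genes that activate, methylate or break down jasmonate were not called, and 0 of the 5 were under 0.05 by limma's unadjusted p. JAR1 (AT2G46370) makes the isoleucine conjugate that COI1 perceives. It was at 8.03, 7.94 and 7.97 in Col-0 and at 7.83, 8.12 and 8.11 in naa20-1, with a difference of 0.04 (95% interval -0.21 to 0.28). JMT (AT1G19640), which makes the volatile methyl ester, was at 3.96, 3.97 and 3.84 in Col-0 and at 3.67, 3.24 and 3.89 in naa20-1. The groups overlapped and 2 of the naa20-1 values were dim (difference -0.32, SE 0.16, limma adjusted p = 0.425).

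The CYP94 cytochromes P450 oxidise the active conjugate and end its signal. CYP94B3 (AT3G48520) was the one that was not dim, at 6.11, 6.62 and 6.36 in Col-0 and 6.37, 6.03 and 6.13 in naa20-1, and its groups overlapped (difference -0.19, 95% interval -0.54 to 0.16). CYP94B1 and CYP94C1 were dim on all 6 arrays. CYP94B1 (AT5G63450) was at 2.63, 2.49 and 2.41 in Col-0 and at 2.65, 2.64 and 2.92 in naa20-1, with a difference of 0.23 (SE 0.11, limma adjusted p = 0.428) in which the groups were apart by 0.00537. CYP94C1 (AT2G27690) differed by -0.01 (SE 0.11).

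**Figure D2:**
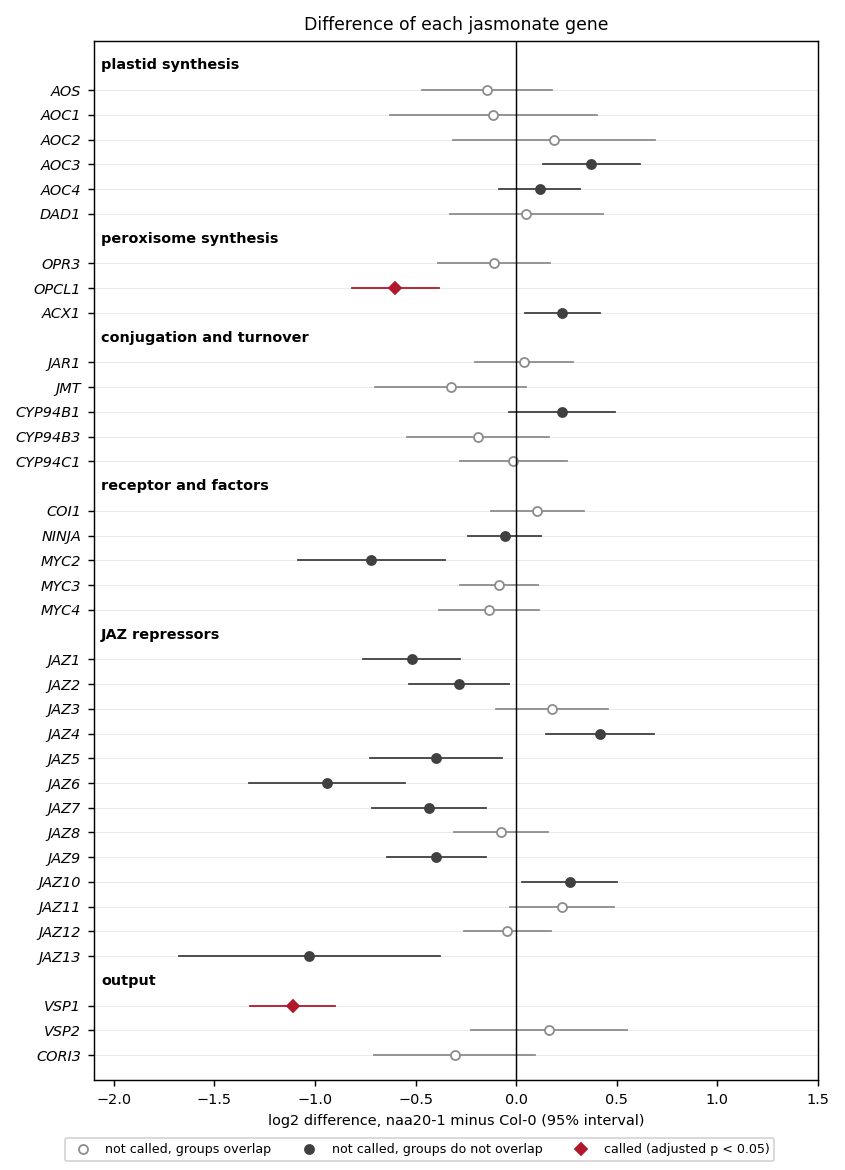
Each point is the log2 difference of a gene, naa20-1 minus Col-0, and the line its 95% interval from limma, with 3 arrays per group; diamonds are called genes, filled circles uncalled genes whose groups do not overlap and open circles those that overlap. VSP1 (-1.11) and OPCL1 (-0.60) are the diamonds, and among the uncalled genes MYC2, JAZ1, JAZ2, JAZ5, JAZ6, JAZ7, JAZ9 and JAZ13 have intervals wholly below 0, and AOC3, ACX1, JAZ4 and JAZ10 wholly above.

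Among the receptor and the transcription factors, 0 of 5 genes were called and 4 of 5 differences were below 0, beside 48.8% of all tested genes. MYC2 (AT1G32640), the main bHLH activator of wound genes, had the widest gap of the 5. It was at 5.23, 4.68 and 5.03 in Col-0 and at 4.43, 4.25 and 4.09 in naa20-1. Every mutant value lay below every Col-0 value, by 0.245 at the closest. The difference was -0.72 (SE 0.16, 95% interval -1.09 to -0.35), which did not pass the test over all genes (unadjusted p = 0.00213, limma adjusted p = 0.0946). With 1 array left out MYC2 differed by -0.87 to -0.59, at adjusted p-values from 0.0812 to 0.246. A filter on the dimmest 40% of probe sets removes MYC2.

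MYC3 and MYC4 are close relatives of MYC2 that share much of its role. MYC3 (AT5G46760) was at 8.57, 8.48 and 8.48 in Col-0 and at 8.38, 8.49 and 8.40 in naa20-1, with a difference of -0.09 (95% interval -0.28 to 0.11). MYC4 (AT4G17880) was at 5.87, 5.61 and 5.92 in Col-0 and at 5.69, 5.72 and 5.58 in naa20-1, with a difference of -0.13 (95% interval -0.38 to 0.12). Both overlapped between the groups. Whether the difference of MYC2 departs from those of MYC3 and MYC4 was not tested.

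COI1 (AT2G39940), the F-box receptor, was at 8.33, 8.20 and 8.40 in Col-0 and at 8.36, 8.35 and 8.55 in naa20-1, with a difference of 0.11 (95% interval -0.13 to 0.34, limma adjusted p = 0.697). NINJA (AT4G28910), the adaptor that ties JAZ to a general corepressor, was at 9.16, 9.17 and 9.21 in Col-0 and 9.13, 9.15 and 9.10 in naa20-1. Its groups did not overlap, but were apart by 0.0137 only, and the difference was -0.06 (SE 0.08, limma adjusted p = 0.795).

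None of the 13 JAZ repressor genes was called in limma, while 7 were lower and 2 higher under 0.05 by the unadjusted p. The same 9 genes had groups that did not overlap. These are 69.2% of the 13, beside 21.0% of all tested genes, and for lower alone 7 of 13 beside 10.5%. The median difference of the 13 was -0.28, and 9 of 13 were below 0, beside 48.8% of all tested genes. Set against the Col-0 mean of each gene, the median over the 13 was -0.28, -0.16 and -0.31 in naa20-1 replicates 1, 2 and 3. It was -0.06, -0.09 and 0.15 in Col-0 replicates 1, 2 and 3. The Col-0 arrays make up that mean, which holds their own values near 0. Members of a family share sequence, respond to the same hormone and lie on the same arrays, so these counts are a description and carry no test.

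**Figure D3:**
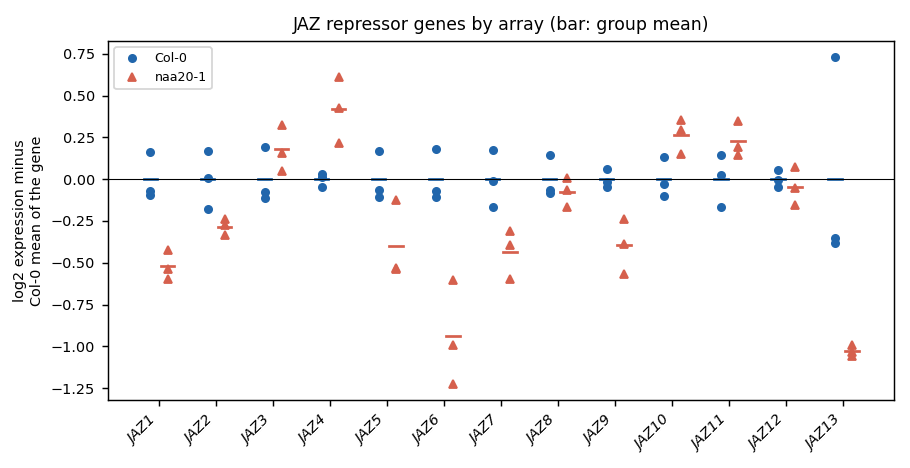
The vertical axis is log2 expression minus the Col-0 mean of that gene, for the 13 JAZ genes; circles are Col-0 arrays, triangles naa20-1 arrays and bars the group means of 3. JAZ1, JAZ2, JAZ5, JAZ6, JAZ7, JAZ9 and JAZ13 have all triangles below all circles, JAZ4 and JAZ10 all above, and 1 Col-0 array stands far above the other Col-0 arrays for JAZ13.

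JAZ6 and JAZ5 form a pair of related repressors. JAZ6 (AT1G72450) was at 10.24, 10.21 and 10.49 in Col-0 and at 9.32, 9.71 and 9.09 in naa20-1. All mutant values were lower, by 0.496 at the closest. The difference was -0.94 (SE 0.17, 95% interval -1.33 to -0.55) at a limma adjusted p of 0.0513, just over the threshold. The difference was called with a variance trend and robust fit (adjusted p = 0.0125), without dim probe sets (0.0305) and without naa20-1 replicate 2 (-1.11, 0.0397). With any 1 of the other 5 arrays left out it was not called (adjusted p 0.102 to 0.171). Nor was it called with a block for replicate number (0.123). Repeated quantile normalization, median centring and adjustment over all probe sets left it uncalled (0.0513 to 0.0546). JAZ5 (AT1G17380) was at 4.55, 4.51 and 4.79 in Col-0 and at 4.08, 4.49 and 4.08 in naa20-1. Its groups were apart by 0.0195, with naa20-1 replicate 2 close to the Col-0 values (difference -0.40, SE 0.14, limma adjusted p = 0.259).

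JAZ1 and JAZ2 are another pair, and JAZ1 was among the first JAZ proteins shown to bind COI1 in the presence of the hormone. JAZ1 (AT1G19180) was at 8.76, 8.74 and 8.99 in Col-0 and at 8.23, 8.41 and 8.29 in naa20-1. Its groups were apart by 0.326, and the difference was -0.52 (SE 0.10, 95% interval -0.76 to -0.28, limma adjusted p = 0.0737). With a variance trend and robust fit (adjusted p = 0.0117) or without dim probe sets (0.0380), JAZ1 was called, and with any 1 array left out it was not (0.139 to 0.200). JAZ1 was also not called with a block for replicate number (0.145). The same held for repeated quantile normalization, median centring and adjustment over all probe sets (0.0736 to 0.0760). JAZ2 (AT1G74950), which the reference table lists as TIFY10B, was at 8.37, 8.55 and 8.71 in Col-0 and at 8.26, 8.30 and 8.21 in naa20-1 (difference -0.28, SE 0.11, limma adjusted p = 0.291). The mutant values were lower in each case, with a gap of 0.0645 between the groups.

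JAZ3, JAZ4 and JAZ9 belong to 1 subgroup of the family, and their differences had both signs. JAZ9 (AT1G70700), listed as TIFY7, was at 10.17, 10.14 and 10.25 in Col-0 and at 9.62, 9.95 and 9.80 in naa20-1. Its difference was -0.40 (SE 0.11, limma adjusted p = 0.153). JAZ9 was called with a variance trend and robust fit (0.0311) and not called with any 1 array left out (0.161 to 0.342). It was also not called without dim probe sets (0.0847) or with a block for replicate number (0.227). JAZ4 (AT1G48500) was at 4.49, 4.43 and 4.51 in Col-0 and at 4.90, 4.69 and 5.09 in naa20-1, with a difference of 0.42 (SE 0.11, 95% interval 0.15 to 0.69, limma adjusted p = 0.161). The groups of JAZ9 and of JAZ4 did not overlap, and they stood on opposite sides. JAZ3 (AT3G17860), whose truncated form gave the jai3 jasmonate-insensitive mutant, was at 8.25, 8.21 and 8.52 in Col-0 and at 8.38, 8.48 and 8.65 in naa20-1, with overlap (difference 0.18, 95% interval -0.10 to 0.46).

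JAZ7, JAZ8 and JAZ13 are known to carry an EAR repressor motif. JAZ7 (AT2G34600) was at 5.31, 5.65 and 5.47 in Col-0 and at 5.08, 4.88 and 5.17 in naa20-1, with all mutant values lower (difference -0.43, SE 0.12, limma adjusted p = 0.169). JAZ8 (AT1G30135) was dim on all 6 arrays, at 2.69 ± 0.13 (SD, n = 3) in Col-0 and 2.61 ± 0.09 in naa20-1, and differed by -0.08 (95% interval -0.31 to 0.16). JAZ13 (AT3G22275, a locus without a symbol in the reference table) was at 3.42, 3.45 and 4.53 in Col-0 and at 2.81, 2.77 and 2.75 in naa20-1. Of its 6 values 5 were dim, and Col-0 replicate 3 stood more than 1 above the other Col-0 arrays. The difference was -1.03 (SE 0.28, limma adjusted p = 0.155). Without Col-0 replicate 3 it was -0.66 (adjusted p = 0.0686). JAZ13 had an SD of 0.63 in Col-0, where the median SD of the 35 genes was 0.13.

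JAZ10 (AT5G13220), which limits the response through splice forms that resist destruction, was at 5.19, 5.12 and 5.35 in Col-0 and at 5.37, 5.57 and 5.52 in naa20-1. The mutant values were higher, by 0.0188 at the closest, and the difference was 0.27 (SE 0.10, limma adjusted p = 0.294). A single value per gene does not separate its splice forms. JAZ11 and JAZ12, the remaining pair, overlapped between the groups. JAZ11 (AT3G43440) was at 8.77, 8.58 and 8.89 in Col-0 and at 9.10, 8.89 and 8.94 in naa20-1 (difference 0.23, 95% interval -0.03 to 0.49), and JAZ12 (AT5G20900) differed by -0.04 (95% interval -0.26 to 0.17).

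Of the 3 output genes VSP1 fell, and the other two were not called. VSP1 (AT5G24780) encodes a vegetative storage protein of leaves that jasmonate and wounding induce through COI1 and MYC2. It was at 5.50, 5.31 and 5.39 in Col-0 and at 4.26, 4.25 and 4.37 in naa20-1. The highest mutant value lay 0.943 below the lowest Col-0 value. VSP1 fell 2.16-fold (difference -1.11, SE 0.09, 95% interval -1.32 to -0.90, limma adjusted p = 0.00404). The call held with each array left out in turn, with differences from -1.16 to -1.06 and adjusted p-values from 0.0148 to 0.0299. VSP1 is among the 12 of the 35 genes that a filter on the dimmest 40% of probe sets removes. MYC2, JAZ4, JAZ5 and JAZ13 are also among those 12.

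VSP2 (AT5G24770) is the direct neighbour of VSP1 on chromosome 5 and encodes a closely similar protein. It was dim on all 6 arrays, at 2.68, 2.75 and 3.07 in Col-0 and 2.72, 2.99 and 3.28 in naa20-1, with a difference of 0.16 (95% interval -0.23 to 0.55). The sources used here do not give how far each of these probe sets also measures the other gene. CORI3 (AT4G23600), a cystine lyase gene induced by the jasmonate mimic coronatine, was at 6.39, 6.70 and 6.70 in Col-0 and at 6.58, 5.95 and 6.34 in naa20-1, with overlap (difference -0.31, 95% interval -0.70 to 0.09, limma adjusted p = 0.481).

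A list of 48 other genes of the pathway, from the supply of linolenic acid to further response genes, was set beside these. Of the 48, 3 were called lower and 0 higher, beside 0.767% and 0.382% of all tested genes, and 45 did not pass the test. Under 0.05 by limma's unadjusted p, 7 were lower and 4 higher, beside 7.19% and 7.02%. The median difference of the 48 was -0.02, and 25 were below 0, beside 48.8% of all tested genes. In 14 of the 48 (29.2%) the groups did not overlap, beside 21.0% of all tested genes.

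Upstream of AOS, the lipoxygenase genes LOX4 (difference -1.63, SE 0.10, limma adjusted p = 0.00227) and LOX3 (-0.73, SE 0.09, adjusted p = 0.0193) were lower. The LOX3 call ended when any 1 array was left out other than naa20-1 replicate 3 (adjusted p 0.0521 to 0.0800). The other lipoxygenases that feed this pathway, LOX2 and LOX6, differed by -0.10 (95% interval -0.53 to 0.33) and -0.06 (95% interval -0.25 to 0.13). FAD3, which desaturates linoleic to linolenic acid outside the plastid, was at 11.12, 11.09 and 11.08 in Col-0 and at 10.76, 10.64 and 10.50 in naa20-1 (difference -0.46, SE 0.09, adjusted p = 0.0791). Its groups did not overlap. The plastid desaturases FAD7 and FAD8 overlapped, with differences of 0.01 and -0.05. DGL, a galactolipase relative of DAD1, and HPL1, a gene of the hydroperoxide lyase branch, overlapped as well, with differences of -0.02 and 0.06.

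All 9 other genes on the list that act in the peroxisome or are relatives of OPR3 had differences above 0, from 0.07 for ACX3 to 0.31 for OPR2, with a median of 0.23. None was called in limma. By the unadjusted p 2 of the 9 were higher under 0.05, beside 7.02% of all tested genes, and 4 of the 9 had groups that did not overlap, all higher, beside 10.6%. Of all tested genes, 13938 of 27241 had differences above 0. MFP2, a multifunctional β-oxidation protein, was at 8.91, 8.86 and 8.83 in Col-0 and at 9.18, 9.02 and 9.10 in naa20-1 (difference 0.24, SE 0.09, limma adjusted p = 0.273). ACX2, another acyl-CoA oxidase, was at 9.31, 9.40 and 9.46 in Col-0 and at 9.74, 9.62 and 9.53 in naa20-1 (difference 0.24, SE 0.09, adjusted p = 0.311). ACX1 thus lay on the same side as these genes, and OPCL1 (-0.60) and OPR3 (-0.11, with overlap) on the other. Fatty acid β-oxidation also serves seed oil. Of the 10 seed and embryo markers 4 were called higher, beside 0.382% of all tested genes. The 10 had differences from -0.13 to 3.07, the highest for CRA1, and a median of 0.59. The part of seed and embryo tissue in the differences of the peroxisomal genes was not tested.

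**Figure D4:**
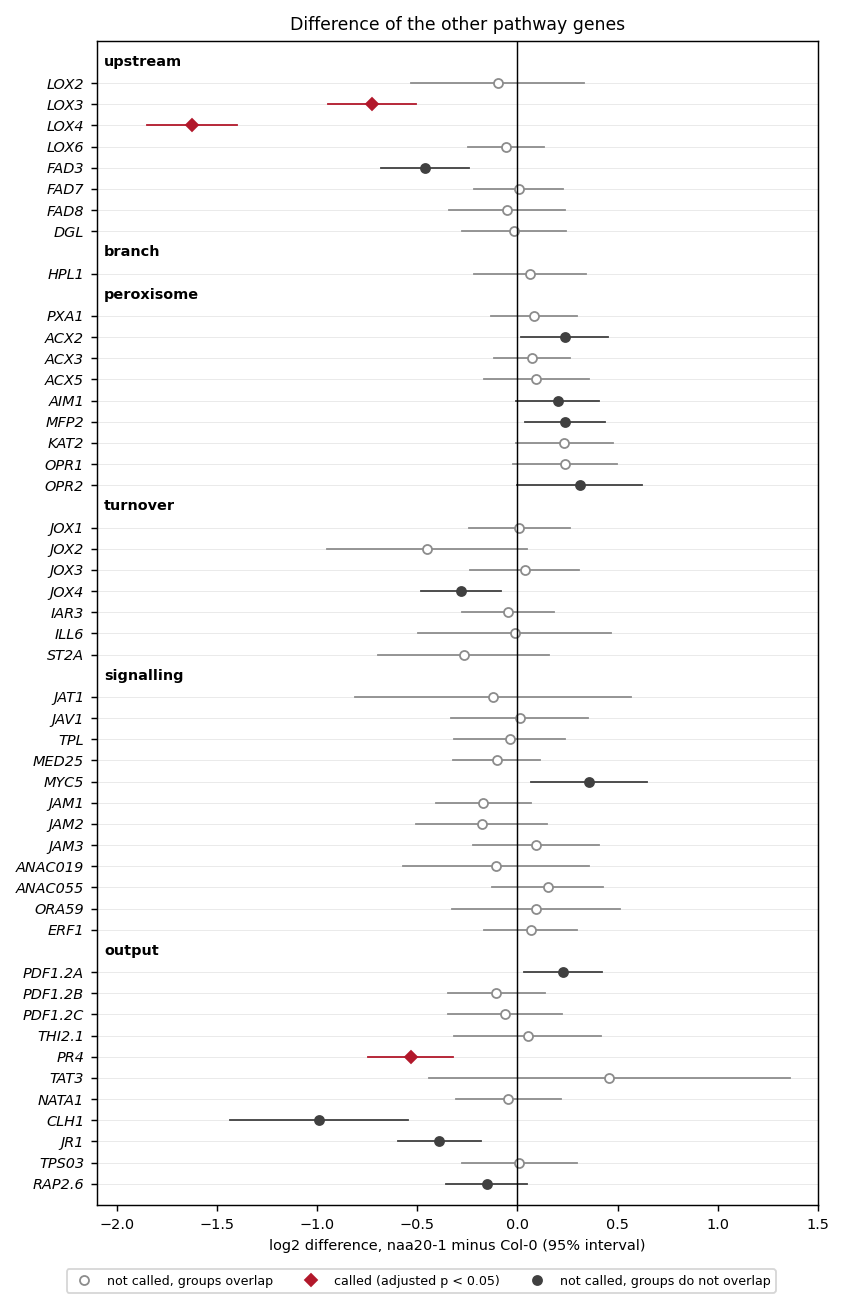
Each point is the log2 difference, naa20-1 minus Col-0, of 1 of the 48 other pathway genes, grouped by step, with its 95% interval from limma (3 arrays per group) and the symbols for called, non-overlapping and overlapping genes. LOX3, LOX4 and PR4 are the called genes, and the points of the 9 genes under the peroxisome heading, which include the OPR3 relatives OPR1 and OPR2, lie to the right of 0.

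Of the 7 turnover genes 0 were called in limma and 1 was under 0.05 by the unadjusted p. That gene was JOX4, one of the oxygenases that hydroxylate jasmonic acid, at 3.77, 3.73 and 3.90 in Col-0 and at 3.56, 3.50 and 3.49 in naa20-1 (difference -0.28, SE 0.09, limma adjusted p = 0.199), with all mutant values dim. Of the 12 signalling genes 0 were called, and 1, MYC5, was under 0.05 by the unadjusted p (0.36, SE 0.12, adjusted p = 0.251).

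Of the 11 further response genes PR4 was called, and 6 were dim on all 6 arrays, among them the defensin genes PDF1.2A, PDF1.2B and PDF1.2C. PR4, a hevein-like protein of the ethylene and jasmonate branch, was at 10.36, 10.37 and 10.36 in Col-0 and at 9.89, 9.91 and 9.70 in naa20-1 (difference -0.53, SE 0.09, adjusted p = 0.0459). Leaving out any 1 array ended this call (adjusted p 0.0831 to 0.155).

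CLH1, a chlorophyllase gene induced by coronatine, was at 7.10, 7.17 and 7.28 in Col-0 and at 6.30, 6.53 and 5.74 in naa20-1 (difference -0.99, SE 0.19, limma adjusted p = 0.0654). JR1, a jacalin-like lectin gene induced by jasmonate, was at 8.63, 8.75 and 8.71 in Col-0 and at 8.22, 8.32 and 8.39 in naa20-1 (difference -0.39, SE 0.09, adjusted p = 0.103). The mutant values of both genes lay wholly below those of Col-0. Among the 11 further response genes, 7 differences were below 0 and 4 above. In 4 of the 11 the groups did not overlap downwards and in 1 upwards, beside 10.5% and 10.6% of all tested genes. The upward gene was PDF1.2A, dim on all 6 arrays (difference 0.23, SE 0.08, limma adjusted p = 0.282). TAT3 had the highest difference of the 11, at 0.46 (SE 0.39, adjusted p = 0.657), with overlap. Of the root markers 14 of 18, and of the shoot markers 7 of 10, had differences below 0, and 0 were called. Their part in the falls of VSP1, LOX3, LOX4 and PR4 and in the differences of MYC2 and the JAZ genes was not tested.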

How the data were processed

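Per the submitters' processing notes, the deposited log2 expression values come from RMA, run by the authors. The method corrects background, equalises array distributions and gives 1 value per probe set. The sources used here do not give array type, probe set definition or genome build. Locus codes were matched to the RefSeq table of TAIR10.1, used for names and gene order. The 27241 matched genes were tested, and 586 codes were left out.

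Genotype was the only term in lmFit and eBayes of limma 3.58.1 (R 4.3.3), two-sided, 3 against 3 arrays. On simulated data for these 27241 genes log2 changes of 0.5, 1, 1.5 and 2 were recovered for 26%, 56%, 92% and 96% of the changed genes, and 5 of 140 calls were false. The simulation changed 50 genes per size and drew independent normal noise at the residual SD of each gene. It held no effects shared by the genes of an array, so these rates may not hold for the real arrays.

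The members and lists were chosen with earlier results of these data known. Values in every sample are given for called members and, in each step, at least the 2 members with the smallest p. The other members have differences or ranges. Of the other pathway genes, called ones and the 4 next by p are named by rule, and the rest were named after their values were seen. Alternatives were repeated quantile normalization, median centring, removal of dim probe sets, a variance trend with robust fit, adjustment over all probe sets, a block for replicate number, and omission of each array. Planned comparisons of sequence features were not made.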

Additional observations from a re-analysis of the deposited data

How the results depend on the processing

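Repeated quantile normalization, median centring and keeping all probe sets in the adjustment left the 2 calls among the 35 genes and the 3 among the 48 other pathway genes in place. With a variance trend and robust fit, 5 of the 35 and 6 of the 48 were called lower, and over all genes 311 higher and 486 lower. Without the dimmest 40% of probe sets, 3 of the 23 genes left were called lower, and 5 of the other pathway genes. Leaving out 1 array gave 1 to 2 calls lower among the 35 and 1 to 2 among the other pathway genes, and over all genes 11 to 63 higher and 51 to 134 lower. The replicate numbers of the titles, used here, were not taken to pair the samples. Deviations of same-numbered samples correlated at 0.013 to 0.062 across genes, under the 0.1 set beforehand for pairing. Samples with different numbers correlated at -0.053 to 0.023, and naa20-1 replicate 3 correlated best with Col-0 replicate 1 (0.023). Whether a weaker pairing exists was not tested. The descriptions number some naa20-1 samples otherwise and would pair replicate 2 of naa20-1 with replicate 3 of Col-0 (-0.010), and no block by those numbers was run. With the replicate block of the titles, 1 of the 35 (VSP1, adjusted p = 0.0249) and 1 of the other pathway genes were called lower, and 61 genes higher and 129 lower over all. The direction held under every alternative run for 29 of the 35. The other 6 turned sign when 1 array was left out, with differences of -0.31 to 0.074 for AOC1, -0.0091 to 0.43 for AOC2, -0.072 to 0.23 for DAD1, -0.013 to 0.13 for JAR1, -0.11 to 0.049 for CYP94C1 and -0.10 to 0.012 for JAZ12. Fewer arrays leave fewer degrees of freedom, and the filter tests fewer genes. Dim signals may limit what can be seen of CYP94B1, CYP94C1, JAZ8 and VSP2. The cause of the larger counts under the variance trend was not tested.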
